A study of Mus musculus with 70 samples.

Results

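The numbered Zfp genes are the mouse genes whose symbol is Zfp followed by digits only. Members were the numbered Zfp genes, without Zfp36, that had a mean of at least 10 counts per library in CD45- cells on day 3, which kept 194 of 375 such lines among 55487 named lines in the tables. The values that chose them were therefore the CD45- day 3 counts, and the other 181 lines stayed below the minimum, 16 of them at 0 in every library. The members closest to the limit were Zfp772 and Zfp932, with means of 10.3 and 10.4 counts, and the lines just outside it were Zfp563 and Zfp661, both at 9.94. The symbol Zfp91 was shared with a further line that held no counts. The label describes symbols and not a cell type, so no marker could test it.

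RNA was measured in 70 libraries of cells sorted by flow cytometry from subcutaneous B16F10 tumors, a pigmented melanoma line, grown on the flanks of male and female C57BL/6 mice that were bought at 6 to 8 weeks of age. Mice carried a tumor on each flank, and the groups were control tumors with sham ablation (CON), tumors treated by partial histotripsy, a mechanical ablation by focused ultrasound (HT), and the untreated tumor opposite a histotripsy-treated one (ABS, Abscopal in the labels). Cells were taken 3 or 7 days later as a CD45+ fraction, holding immune cells, and a CD45- fraction, holding tumor and other cells. On day 3 there were 4 CON, 7 HT and 7 ABS libraries of CD45- cells and 4, 6 and 7 of CD45+ cells. On day 7 there were 11, 3 and 4 of CD45- cells and 10, 3 and 4 of CD45+ cells. All groups shared the same tumor line and mouse strain, groups were assigned without randomization, and only part of each HT tumor was ablated. The labels did not tie libraries to mice, so HT and ABS tumors, or both fractions of a tumor, may come from the same animal, and the p-values measure the spread between libraries.

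Most Zfp symbols mark proteins with zinc fingers, short folds that hold a zinc ion between cysteines and histidines and contact DNA, or in some members RNA or protein. The symbol is a naming series and not a single family: many members pair their fingers with a KRAB domain, which recruits the corepressor Trim28 and through it the histone methyltransferase Setdb1 to silence retrotransposons and imprinted regions, while others activate transcription, process RNA or act at the ribosome. KRAB members arose by local duplication and lie in clusters, so near-identical copies are common.

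The 194 members were spread over 19 chromosomes, with 45 on chromosome 7, 23 on chromosome 17 and 16 on chromosome 6, by their symbols in the GENCODE annotation of GRCm38. Of the 193 with a position, 96 lay within 100 kb of another numbered Zfp gene and 191 were protein coding. RefSeq promoters of GRCm38.p6, taken here as the 250 bases before a listed start of the gene, were held for 159 of the 194. Where several were listed for a gene, a motif counted if any held it, and the highest CG count was taken. On this count members had a median of 13.0 CG dinucleotides against 6.0 over 27025 genes. Letters were searched on both strands, and none of the motifs lies within another. The ETS motif CCGGAAGT was present for 16 of these members, or 10.1%, against 3.23% of all genes with a promoter. The ZNF143 motif, spelled out by the capitals nearest to the end of the Zfp933 promoter shown with the others, was present in 5, or 3.14%, against 0.296%, and these were the promoters of Zfp1, Zfp180, Zfp58, Zfp692 and Zfp933. The GC box GGGCGG was present for 52.2% of these members against 35.4% of all genes, and the CCAAT box CCAAT for 50.3% against 37.5%. The E-box CACGTG was present for 8.18% against 6.86% and the TATA box TATAAA for 9.43% against 14.3%. A match is a description of letters and was not tested as a binding site.

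Promoters are shown for members on which the comparisons turn, read 5′ to 3′ on the strand of the gene, with ETS, ZNF143 and E-box matches in capitals. Where several were listed for a gene, the first that held such a match is shown, so the sequences were picked for their matches. Zfp263 (chr16:3743849-3744098, plus strand) and Zfp217 (chr2:170142676-170142925, minus strand) were higher in CD45+ cells and each held an ETS match, 1 base and 163 bases before the listed start. The stretch shown for Zfp217 lies within the annotated gene (chr2:170108643-170148103). Zfp938 (chr10:82241281-82241530, minus strand) was lower there and also held an ETS match, on the opposite strand and 11 bases before the start. Zfp933 (chr4:147848419-147848668, minus strand) held the ZNF143 match 21 bases and an E-box 104 bases before the start, and Zfp292 (chr4:34882949-34883198, minus strand) held an E-box at 39 and another at 6 bases. Zfp345 (chr2:150485064-150485313, minus strand) and Zfp979 (chr4:147642509-147642758, minus strand), both near 0 in CD45+ cells, held none of these motifs and 3 and 2 CG dinucleotides. The other sequences shown held 14 (Zfp263), 21 (Zfp292), 6 (Zfp217), 8 (Zfp933) and 3 (Zfp938). These single promoters do not stand for their sets. On the highest count per gene, members called lower in CD45+ cells by more than 2 log2 units had a median of 13.0. That equals the median of all members, and members called higher had a median of 15. These calls are from the day 7 test in control tumors.
Zfp263: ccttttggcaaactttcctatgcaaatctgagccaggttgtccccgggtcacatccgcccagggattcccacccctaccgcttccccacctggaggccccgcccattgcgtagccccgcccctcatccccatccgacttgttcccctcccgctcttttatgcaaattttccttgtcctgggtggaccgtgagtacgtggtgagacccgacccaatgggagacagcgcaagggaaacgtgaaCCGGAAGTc
Zfp217: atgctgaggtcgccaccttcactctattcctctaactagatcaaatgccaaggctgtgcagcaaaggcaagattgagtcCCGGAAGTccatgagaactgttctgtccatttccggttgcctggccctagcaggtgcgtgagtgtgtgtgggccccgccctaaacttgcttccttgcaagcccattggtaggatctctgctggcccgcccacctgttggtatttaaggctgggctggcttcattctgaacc
Zfp938: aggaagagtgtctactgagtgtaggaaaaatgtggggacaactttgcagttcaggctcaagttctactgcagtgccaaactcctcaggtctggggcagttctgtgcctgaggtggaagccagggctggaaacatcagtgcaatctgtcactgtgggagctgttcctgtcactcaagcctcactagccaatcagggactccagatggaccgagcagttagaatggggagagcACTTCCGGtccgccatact
Zfp933: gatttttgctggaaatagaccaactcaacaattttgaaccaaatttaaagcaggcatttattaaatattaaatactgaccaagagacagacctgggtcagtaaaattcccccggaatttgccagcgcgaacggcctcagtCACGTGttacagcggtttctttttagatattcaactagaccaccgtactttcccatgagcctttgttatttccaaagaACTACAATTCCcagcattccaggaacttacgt
Zfp292: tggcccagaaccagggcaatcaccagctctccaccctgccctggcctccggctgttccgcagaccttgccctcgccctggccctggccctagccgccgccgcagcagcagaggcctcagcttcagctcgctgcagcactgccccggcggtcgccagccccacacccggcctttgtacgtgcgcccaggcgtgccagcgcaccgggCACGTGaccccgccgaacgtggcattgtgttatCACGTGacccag
Zfp345: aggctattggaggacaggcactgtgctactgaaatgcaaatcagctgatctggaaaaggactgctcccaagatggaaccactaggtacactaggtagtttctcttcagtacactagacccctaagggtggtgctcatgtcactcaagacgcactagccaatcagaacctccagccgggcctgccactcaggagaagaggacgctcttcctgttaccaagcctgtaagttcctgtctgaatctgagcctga
Zfp979: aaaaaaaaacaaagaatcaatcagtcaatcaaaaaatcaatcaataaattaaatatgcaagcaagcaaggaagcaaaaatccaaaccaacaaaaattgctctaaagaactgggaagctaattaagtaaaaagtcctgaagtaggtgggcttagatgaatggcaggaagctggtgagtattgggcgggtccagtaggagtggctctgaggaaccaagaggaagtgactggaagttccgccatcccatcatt

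The ETS match was therefore found on either side of the fraction difference. Of members with a promoter, 3 of 25 called higher in CD45+ cells and 7 of 79 called lower held it, by the day 7 test in control tumors that is given further on.

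Libraries held 887798 to 3820705 counts, and the members together 3354 to 20302 counts per library. All 194 were detected in every CD45- library and 178 to 192 in the CD45+ libraries. Ptprc, which encodes CD45, lay at 0 to 1.38 CPM (counts per 1000000 on totals scaled with TMM factors) in CD45- libraries and at 717 to 1328 CPM in CD45+ libraries, and the summed level of 9 melanoma markers was at 22162 to 34819 CPM in CD45- libraries, at 100 to 2635 CPM with a median of 239 CPM in the CD45+ day 3 ABS libraries, and at 105 to 530 CPM in the other CD45+ libraries. The fractions thus carried the markers of their labels. In CD45+ cells on day 3 the summed level of 10 neutrophil markers was 391 to 2909 CPM in CON, 932 to 3056 CPM in ABS and 1459 to 40631 CPM in HT, with HT replicate 3 at the top and none of the 10 at 0, and that library also held 10960 CPM of 5 erythroid markers. The 8 T cell markers summed to 1111 to 1642 CPM in CON and 422 to 1065 CPM in HT. In CD45- cells on day 3 the 6 fibroblast markers reached 12400 CPM in 1 HT library, against 15.4 to 980 CPM in CON.

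QuantSeq reads mark the end of a transcript, so levels were compared between genes as CPM without a length correction. Over the 3 groups together, the highest members in CD45- cells on day 3 were Zfp106, an RNA-binding protein, at 238 ± 27.3 CPM (SD, n = 18), Zfp706 at 210 ± 24.0 CPM, Zfp207, which binds the spindle checkpoint protein Bub3, at 149 ± 16.7 CPM, Zfp326, a splicing and elongation factor, at 146 ± 24.5 CPM, and Zfp800 at 134 ± 19.1 CPM. In CD45+ cells on day 3, again over the 3 groups, the order was Zfp106 at 198 ± 38.4 CPM (SD, n = 17), Zfp292 at 174 ± 41.3 CPM, Zfp800 at 161 ± 32.3 CPM, Zfp263 at 149 ± 90.4 CPM and Zfp207 at 149 ± 14.0 CPM. In CD45- cells Zfp106, Zfp706 and Zfp207 differed from their neighbors in that order by more than the SD of either, while Zfp207, Zfp326 and Zfp800 did not, and in CD45+ cells all 5 lay within the larger SD of their neighbors. The place of Zfp263 differed by group, with a mean of 79.5 CPM in CON, below Zfp207 at 152 CPM, and of 236 CPM in HT, above Zfp106 at 205 CPM. The median member stood at 12.4 CPM in CD45- and 9.41 CPM in CD45+ cells, and the top 10 held 29.0% and 34.1% of the member counts. In CD45+ cells 11 members had a mean under 1 CPM, which the count minimum did not allow in CD45- cells.

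Members took 0.524% ± 0.0329 (SD, n = 11) of the counts of CD45- and 0.375% ± 0.0201 (SD, n = 10) of those of CD45+ control libraries on day 7. The ranges were 0.473% to 0.580% and 0.349% to 0.407%. Members were kept for their CD45- counts, and 74 of the 194 passed the minimum in CD45- but not in CD45+ cells on day 3. A larger share in CD45- cells is thus partly fixed by the choice, and that of other genes of the same minimum was not taken. In bulk RNA, fewer cells of a type and less RNA per cell cannot be told apart. Precision followed the level: in CD45- control libraries of day 7 the median coefficient of variation between libraries fell from 30.2% in the lowest of 4 equal classes of members by level to 13.2% in the highest.

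Which members differ between immune and non-immune cells was tested on day 7, whose libraries the choice of members did not use. More members were called lower than higher in CD45+ cells, as were more of the genes that passed the same count minimum. In control tumors 97 of the 194 members were called lower and 32 higher (edgeR quasi-likelihood test, adjusted p under 0.05 over all genes tested), in HT tumors 81 and 24, and in ABS tumors 83 and 23. The share called was 66.5%, 54.1% and 54.6%. The background was 80.3% of all genes tested in CON, 65.6% in HT and 69.5% in ABS, so fewer members than genes at large were called. Among the genes that passed the same count minimum the shares were 78.1%, 62.2% and 66.4%. By direction, all genes were called 41.7% higher and 38.6% lower in CON, 34% higher and 31.6% lower in HT and 35.7% higher and 33.8% lower in ABS, and genes of the same minimum 31.4% higher and 46.6% lower in CON, 23.8% higher and 38.4% lower in HT and 25.4% higher and 41% lower in ABS. The share of members called higher was 16.5% in CON, 12.4% in HT and 11.9% in ABS, and the share called lower was 50%, 41.8% and 42.8%, close to that of genes of the same minimum. The median member difference was -0.39 on the log2 scale in CON, -0.36 in HT and -0.40 in ABS, beside -0.21, -0.24 and -0.25 for genes of the same minimum and 0.04, 0.02 and 0.01 for all genes. Since members were kept for their CD45- level, part of this direction is fixed by the choice: of the 124 Zfp lines with a mean of 10 counts in CD45+ cells on day 3, 48 were called lower and 35 higher in control tumors.

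Another scale moved this split. When libraries were scaled by their total counts alone, 118 members were lower and 19 higher in CON, 86 and 15 in HT and 101 and 15 in ABS, while the median of all genes moved to -0.17 in CON and that of the members to -0.60. Of the 194 members, 67 were called lower and 17 higher in all 3 groups, 0 were called in opposite directions, and 52 were called in no group. Such counts were not taken over all genes, so they cannot set the members apart from genes at large. On day 3, where the choice of members used the CD45- libraries and no test was made, 82 of the 84 members called alike in all 3 groups had the same sign in every group. That choice favors the lower sign, so the day 3 signs are no support for the day 7 calls. The median member differences on day 3 were -0.37 in CON, -0.45 in HT and -0.34 in ABS.

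**Figure D1:**
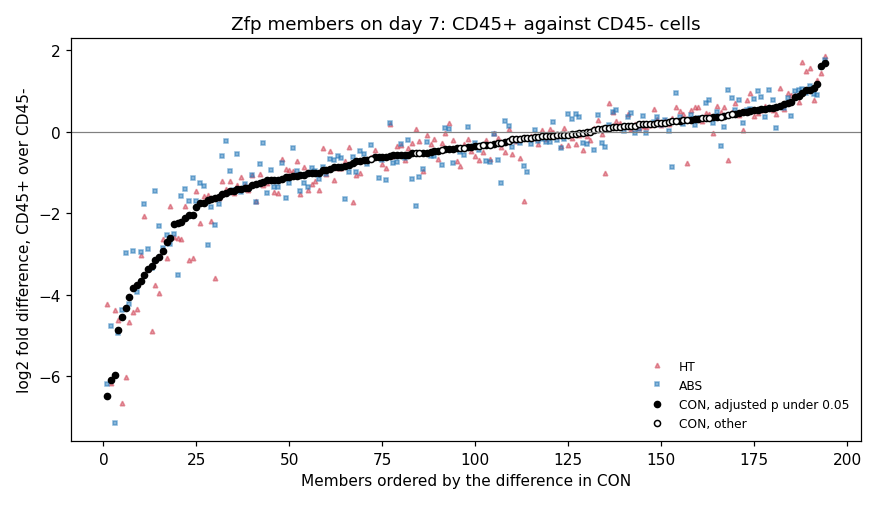
Log2 difference between CD45+ and CD45- cells on day 7 (vertical axis) for the 194 members, ordered by the value in CON (horizontal axis), with filled circles for members called in CON, open circles for the others, triangles for HT and squares for ABS. The values run from -6.48 to 1.69 in CON, with 97 members called lower and 32 called higher.

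The members highest in CD45+ cells relative to CD45- cells were Zfp703, a transcriptional corepressor, and Zfp263, which carries SCAN and KRAB domains beside its fingers. Zfp703 ranged from 75.4 to 128 CPM with a median of 108 CPM in 10 CD45+ control libraries, and from 22.1 to 48.6 CPM with a median of 31.2 CPM in 11 CD45- ones. The lowest CD45+ library thus stood above the highest CD45- library. The log2 difference was 1.69 (SE 0.12, adjusted p = 6.65e-16). In HT and ABS tumors the Zfp703 difference was 1.86 and 1.76.

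Zfp263 (chr16:3744093-3750790, plus strand) ranged from 75.4 to 122 CPM in CD45+ and from 18.1 to 38.3 CPM in CD45- control libraries, with medians of 87.2 and 31.3 CPM. These groups also did not overlap, and the log2 difference was 1.61 (SE 0.11, adjusted p = 8.98e-17), with 1.45 in HT and 1.59 in ABS. Zfp407, known for regulating glucose uptake in adipocytes, had a mean of 19.5 ± 2.93 CPM (SD, n = 10) in CD45+ and of 8.70 ± 2.26 CPM (SD, n = 11) in CD45- libraries, which differed by 1.18 on the log2 scale (SE 0.14, adjusted p = 1.27e-09). Zfp292 (chr4:34803113-34882960, minus strand) was at 194 ± 41.2 CPM against 92.8 ± 11.9 CPM, a log2 difference of 1.07 (adjusted p = 3.88e-10). Neither of these pairs of groups overlapped. Zfp758 was higher by 1.04, Zfp236 by 1.03, Zfp710 by 0.96, Zfp574 by 0.87, Zfp592 by 0.84, Zfp217 by 0.72 and Zfp652 by 0.68 on the log2 scale, with adjusted p-values from 3.70e-10 to 1.82e-06, and groups overlapped for Zfp758, Zfp574 and Zfp652.

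The 17 members called higher in CD45+ cells in every group were Zfp703, Zfp263, Zfp407, Zfp292, Zfp758, Zfp236, Zfp710, Zfp574, Zfp592, Zfp217, Zfp652, Zfp869, Zfp622, Zfp984, Zfp384, Zfp277 and Zfp120. In CON 6 members were called higher by more than 1 log2 unit, and 57 were called lower by more than 1 and 24 by more than 2. Counts at these cuts were not taken for all genes. At any size, 31.4% of genes of the same minimum were called higher and 46.6% lower. Members were kept for their CD45- level, and 74 of the 194 were below a mean of 10 counts in CD45+ cells on day 3. The split is therefore shaped by the choice.

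The members lowest in CD45+ cells were near absent from them. Zfp345 (chr2:150470991-150485091, minus strand) had 0 counts in the 10 CD45+ control libraries and 148 counts in the 11 CD45- ones, which ranged from 3.45 to 7.29 CPM, so it was at least 29.0-fold lower by a floor of 3 counts over the group. Zfp462 (chr4:54945048-55083563, plus strand), which acts with heterochromatin protein in lineage choice, had 3 counts against 464, a ratio of 90.8 with a counting interval of 31.1 to 440. Zfp979 (chr4:147611937-147642513, minus strand) had 2 counts against 313, a ratio of 91.9 with an interval of 25.4 to 759. For these 3 members each CD45- library lay above each CD45+ library, and the intervals cover counting error only. Zfp618 had 6 counts against 348, Zfp697 had 4 against 198 and Zfp37 had 3 against 136 over the same libraries.

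Members with more counts in CD45+ cells gave the smallest p-values. Zfp428 (chr7:24507006-24515682, plus strand) ranged from 2.38 to 5.797 CPM, with a median of 3.56 CPM, in CD45+ and from 49.8 to 79.0 CPM, with a median of 57.8 CPM, in CD45- control libraries. The groups were far apart, and the log2 difference was -4.06 (SE 0.13, adjusted p = 4.39e-27). Zfp532, related to the Zmynd8 partners Zfp592 and Zfp687, was at 2.21 ± 1.24 CPM against 29.5 ± 4.65 CPM, a log2 difference of -3.77 (SE 0.19, adjusted p = 1.62e-20), and Zfp704 at 1.19 to 5.57 CPM against 29.1 to 46.2 CPM, a log2 difference of -3.36 (SE 0.15, adjusted p = 1.78e-22). Zfp24, needed for myelination, kept a level of 27.5 ± 6.93 CPM in CD45+ cells beside 91.7 ± 5.83 CPM in CD45- cells, a log2 difference of -1.74. Zfp580, Zfp637 and Zfp768 were lower by -2.70, -2.27 and -2.12 on that scale, and none of these members had overlapping groups. Among the 10 lower members with the smallest p in HT tumors were also Zfp266 and Zfp30, at -1.504 and -4.42, and in ABS tumors Zfp266 and Zfp451, the first at -1.34.

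**Figure D2:**
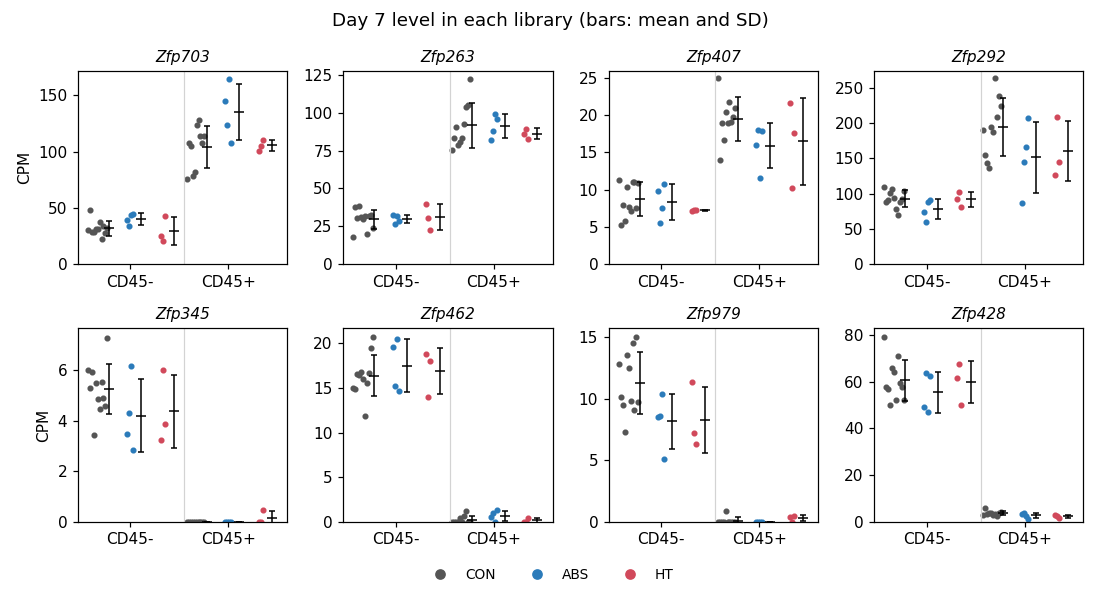
CPM of 8 members in each day 7 library (vertical axes), by fraction and group (horizontal axes), with points for libraries and bars for the mean and SD. Zfp703, Zfp263, Zfp407 and Zfp292 sit higher in CD45+ libraries, and Zfp345, Zfp462, Zfp979 and Zfp428 sit near 0 there, as for Zfp428 at 2.38 to 5.797 CPM in CON.

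Grouped by known roles, the 10 members that act on RNA, ribosomes or other proteins were split, with 3 called higher and 5 lower in CD45+ control cells and a median of -0.22, beside 41.7% of all genes called higher and 38.6% lower, to which the other role counts of this comparison also compare. Zfp598, the ubiquitin ligase that senses collided ribosomes, was higher by 0.48, Zfp622, a ribosome biogenesis factor, by 0.56 and Zfp91, a ubiquitin ligase of non-canonical NF-kB signaling, by 0.30 on the log2 scale. Zfp326 was lower at 72.6 ± 8.57 CPM against 147 ± 20.5 CPM (log2 difference -1.01), Zfp451, a SUMO ligase, at 46.7 ± 7.47 CPM against 98.1 ± 9.21 CPM (-1.07), and Zfp346, which binds double-stranded RNA, at 8.59 CPM against 20.1 CPM (-1.26). Zfp638, which silences retroviral DNA, was lower by -0.57 and Zfp106 by -0.37. Zfp207, at 142 ± 13.4 CPM against 150 ± 13.2 CPM, and Zfp830 did not pass, with log2 differences of -0.08 and -0.07.

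Of the 10 members listed as transcription regulators, 4 were higher and 3 lower, with a median of 0.01. Besides Zfp703, Zfp592 and Zfp217, Zfp384 was higher by 0.54, at 26.2 CPM against 17.9 CPM. Zfp532, Zfp609, a partner of the cohesin loader Nipbl, and Zfp687 were lower, the latter pair by -1.42 and -0.57. Zfp143, Zfp148 and Zfp281 did not pass, with values of 0.14, -0.13 and -0.27. Zfp592, Zfp687 and Zfp532, which belong to related protein complexes, thus lay on both sides.

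Of 5 members with a known KRAB silencing role, 1 was called and lower: Zfp568, a repressor of a placental Igf2 transcript, at 9.44 CPM against 17.7 CPM (log2 difference -0.94, adjusted p = 1.65e-07). Zfp57 and Zfp445, which protect imprints, did not pass at 0.43 and -0.18, nor did Zfp809, a retroviral silencer, at -0.15 and Zfp932 at 0.11. Zfp57 varied between libraries, with 6.74 to 60.6 CPM in CD45+ and 7.07 to 19.6 CPM in CD45- control libraries. Zfp318, which B cells use to express IgD, was lower in CD45+ cells by -0.34 at 38.6 CPM against 48.9 CPM, and Zfp683, Zfp335, Zfp423, Zfp521, Zfp593, Zfp708 and Zfp819 were below the count minimum.

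The partners of KRAB members were read from a list of 26 corepressor genes, of which 24 were tested, and 7 were higher and 12 lower in CD45+ control cells, a share near the 80.3% of all genes called. Trim28 was at 94.8 ± 17.2 CPM against 150 ± 11.5 CPM, a log2 difference of -0.67, and Cbx5, heterochromatin protein 1 alpha, at 113 ± 16.3 CPM against 326 ± 29.5 CPM, a difference of -1.54. Morc3 was higher by 1.55, and Setdb1 did not pass at -0.26. Zfp36, left out of the members, encodes tristetraprolin, which destabilizes AU-rich messenger RNAs, and stood far apart from them at 1254 ± 184 CPM in CD45+ and 27.5 ± 10.9 CPM in CD45- control libraries.

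Members inside and outside Zfp clusters were read side by side without a test. Of the 96 within 100 kb of another numbered Zfp gene, 11 were called higher and 49 lower with a median of -0.40, and of the 97 farther away 21 and 47 with a median of -0.34. The background was 41.7% of all genes called higher and 38.6% lower, or 31.4% and 46.6% of genes of the same minimum. The median levels of these 2 sets also differed, at 11.3 and 16.9 CPM in CD45- control libraries of day 7. Of the 19 chromosomes with a member, chromosome 7 had 23 of 45 members called lower and a median of -0.40. Chromosome 6 had 12 of 16 members called lower and a median of -0.99, and chromosome 17 had 8 of 23 and a median of -0.03. Smaller sets lay farther apart, with 4 of 4 and -1.97 on chromosome 3 and 0 of 4 and 0.27 on chromosome 16. Counts of near-identical members are uncertain: of 191 members compared, 57 shared at least 1 run of 50 bases with another gene in the last 500 bases of their transcripts, and Zfp991, Zfp58 and Zfp932 shared 63.2%, 59.6% and 54.9% of such runs. Zfp979 shared 36.8%, with Zfp978, Zfp600 and Rex2, and Zfp345 shared 8.2%, while Zfp263, Zfp703, Zfp462 and Zfp428 shared none. Of the members with a position, 87 overlapped another gene, 44 of them on the same strand, and the strand setting of the counting is not given in the sources used here.

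Whether histotripsy changed the members was tested in each fraction on each day. In CD45+ cells on day 3, where 134 members passed the filter on low counts, 7 members were higher and 1 lower in HT than in CON tumors (edgeR quasi-likelihood test, adjusted p under 0.05), which is 5.97% of those tested against a background of 7.8% of all genes and 5.85% of genes of the same minimum. By direction the background was 6.22% called higher and 1.59% called lower of all genes, or 4.34% and 1.5% of those of the same minimum, and the median member change was -0.02 beside -0.01 for all genes. With library totals as the scale, 4 members were higher and 2 lower, and the medians moved to -0.23 for members and -0.22 for all genes.

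Zfp263 was at 90.3, 95.8, 67.9 and 64.0 CPM in the CON libraries and at 230, 372, 297, 128, 105 and 285 CPM in the HT libraries. Each HT library lay above each CON library, and the lowest pair of HT libraries fell within the ABS range of 81.3 to 146 CPM. The log2 change was 1.56 (SE 0.29, adjusted p = 0.00278). Zfp703 was at 94.3, 89.5, 77.8 and 77.9 CPM in CON and at 154, 185, 258, 160, 120 and 124 CPM in HT, again without overlap, a change of 0.96 (SE 0.19, adjusted p = 0.00492). The ABS libraries of Zfp703 spanned 103 to 157 CPM and also lay above CON, though the ABS change of 0.48 did not pass (adjusted p = 0.57).

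Zfp608, a paralog of Zfp609, was at 22.8, 23.8, 24.4 and 23.2 CPM in CON and at 34.6, 56.9, 103, 51.8, 29.0 and 55.5 CPM in HT. The CON libraries were close together, and the HT libraries lay above all of them with replicate 3 highest. The log2 change was 1.20 (SE 0.29, adjusted p = 0.0136). Zfp719 (chr7:43579610-43593235, plus strand) was at 4.96, 3.97, 5.93 and 5.05 CPM in CON and at 5.60, 12.6, 32.6, 11.3, 10.4 and 19.0 CPM in HT, where the lowest HT library overlapped CON, a change of 1.58 (SE 0.37, adjusted p = 0.0129).

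Zfp622 rose from 94.2 ± 20.6 CPM (SD, n = 4) to 147 ± 17.8 CPM (SD, n = 6), Zfp654 from 14.0 ± 2.74 CPM to 23.6 ± 4.46 CPM and Zfp407 from 15.5 ± 4.03 CPM to 29.0 ± 4.46 CPM, log2 changes of 0.63, 0.72 and 0.90 with adjusted p = 0.0213, 0.0234 and 0.0383, and none of the 3 had overlapping groups. Zfp938 was at 2.98, 6.23, 14.5 and 10.95 CPM in CON and at 3.73, 5.53, 3.63, 0.751, 4.84 and 2.38 CPM in HT. Its groups overlapped, and the change of -1.36 (SE 0.41) was close to the limit at adjusted p = 0.0458. Zfp770 and Zfp866, next in the lower direction, did not pass at -0.76 and -0.71.

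These calls rested unevenly on single libraries. HT replicate 3, with the high neutrophil and erythroid marker levels, was the highest HT library for Zfp703, Zfp608, Zfp719, Zfp654 and Zfp407. Without it 6 members were called: Zfp263 was at 1.48 (adjusted p = 0.00486), Zfp703 at 0.80, Zfp719 at 1.24, Zfp608 at 0.94 and Zfp622 at 0.63, all passing, while Zfp654 at 0.63 (adjusted p = 0.0545), Zfp407 at 0.82 (0.0783) and Zfp938 at -1.37 (0.0752) did not pass. The part of the neutrophil, erythroid and T cell levels in these changes was not tested. Without CON replicate 3, or without CON replicate 4, 4 members were called, and Zfp622 (adjusted p = 0.0985 and 0.1), Zfp654 (0.0608 and 0.051), Zfp407 (0.146 and 0.139) and Zfp938 (0.2 and 0.155) were not. Zfp407 was also lost without HT replicate 2 or 6 (0.0659 and 0.056), Zfp654 without CON replicate 1 or 2 (0.0631 and 0.0525), and Zfp938 without any of 12 of the 17 libraries, its adjusted p reaching 0.2. With library totals Zfp622, Zfp654 and Zfp407 were not called (adjusted p = 0.0923, 0.0967 and 0.0833), and without the filter on low counts, where 7 members were called, Zfp622 and Zfp654 were not (0.0849 and 0.222). Zfp263, Zfp703, Zfp719 and Zfp608 kept their call without each of the 17 libraries and under these alternatives.

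**Figure D3:**
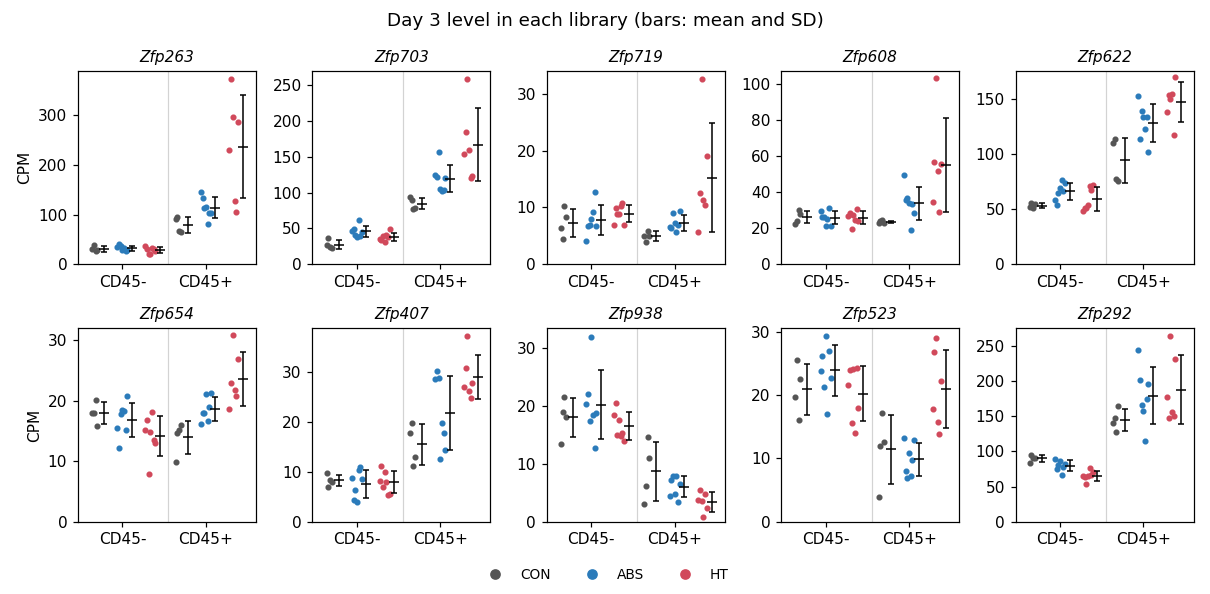
CPM of 10 members in each day 3 library (vertical axes), by fraction and group (horizontal axes), with points for libraries and bars for the mean and SD. In CD45+ cells Zfp263 reaches 372 CPM in HT against at most 95.8 CPM in CON, while the CD45- libraries of Zfp263 stay at 20.7 to 40.0 CPM in all groups.

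HT was also set against ABS tumors in CD45+ cells on day 3, and these comparisons share their libraries. Here 3 members were called, all higher, 2.24% of those tested against a background of 5.44% of all genes (4.87% called higher) and 3.63% of genes of the same minimum (3.17% called higher). They were Zfp263 with a log2 change of 1.06 (SE 0.23, adjusted p = 0.00828), Zfp719 with 1.05 (SE 0.30, adjusted p = 0.0381) and Zfp523, the mouse counterpart of human ZNF76 and a relative of Zfp143, with 1.07 (SE 0.25, adjusted p = 0.0129). Zfp523 was at 17.7, 26.8, 29.0, 15.8, 13.8 and 22.2 CPM in HT and between 6.96 and 13.2 CPM in ABS. The groups did not overlap, and against CON the same gene did not pass at 0.80 (adjusted p = 0.0936). Zfp719 lost its call against ABS without HT replicate 3 (0.71, adjusted p = 0.181), HT replicate 2 or 6 or any of ABS replicates 1, 2, 4, 5 and 6, where adjusted p lay between 0.0546 and 0.0893, and with library totals (0.89, adjusted p = 0.0649), where 2 members were called. Without HT replicate 5, 7 members were called. The lower members with the smallest p, Zfp770, Zfp467 and Zfp369, did not pass at -0.68, -0.61 and -0.67.

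Between ABS and CON tumors 0 of 134 members were called in CD45+ cells on day 3, as were 0 of all genes. An unadjusted p under 0.05 was held by 7 members and by 796 of 10264 genes tested. The 3 higher members with the smallest p were Zfp142, Zfp622 and Zfp703, at 1.36, 0.43 and 0.48, and the 3 lower ones Zfp984, Zfp775 and Zfp866, at -0.50, -0.63 and -0.47, none of which passed. On day 7, with 3 HT and 4 ABS libraries, 151 members were tested in CD45+ cells. Of these 0 were called in any comparison by edgeR or DESeq2, beside a background of 0 for all genes. An unadjusted p under 0.05 was held by 5, 5 and 7 members for HT against CON, ABS against CON and HT against ABS. Of 10817 genes tested, 344, 800 and 290 had such a p. The smallest p was that of Zfp329, at 5.84 ± 0.837 CPM (SD, n = 3) in HT and 13.9 ± 3.05 CPM (SD, n = 10) in CON, a log2 difference of -1.25 that did not pass (adjusted p = 0.859). Others named by their p that did not pass were Zfp738, Zfp710 and Zfp217 at 0.85, 0.38 and 0.32, and Zfp68 and Zfp507 at -0.47 and -0.72. For ABS against CON they were Zfp703, Zfp516 and Zfp787 at 0.39, 0.46 and 0.33, and Zfp523, Zfp446 and Zfp422 at -0.71, -1.03 and -0.89. For HT against ABS they were Zfp523, Zfp746 and Zfp422 at 0.87, 0.47 and 1.06, and Zfp329, Zfp384 and Zfp26 at -1.11, -0.55 and -0.54.

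In CD45- cells, the fraction with the tumor cells, 194 members were tested and 0 were called by edgeR in each of the 6 treatment comparisons, and by DESeq2 only the 3 calls named here were made. For HT against CON on day 3 the background of calls was 0.0916% of all genes. An unadjusted p under 0.05 was held by 17 members, 11 of them lower, and by 1154 of 10921 genes tested. Zfp292 came closest: it was at 83.3, 95.0, 90.6 and 91.0 CPM in CON and at 65.1, 63.3, 53.1, 64.4, 75.8, 66.4 and 71.2 CPM in HT. All HT libraries lay below all CON libraries, and the log2 difference of -0.45 (SE 0.09) had an adjusted p of 0.0644. Zfp467, known from adipocyte and bone cell differentiation, was at 19.7, 20.7, 9.86 and 14.7 CPM in CON and at 4.48 to 11.01 CPM in HT, with overlap, a difference of -1.05 (adjusted p = 0.0936). DESeq2 called both, with adjusted p-values of 0.00868 for Zfp292 and 0.0149 for Zfp467. Zfp768, Zfp703, Zfp248 and Zfp651 did not pass at -0.45, 0.47, 0.61 and 0.71.

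For ABS against CON on day 3 the background of calls was 0, and 11 members had an unadjusted p under 0.05, beside 567 of 10921 genes tested. Zfp703 was at 26.6, 36.1, 24.1 and 23.3 CPM in CON and at 46.1, 49.5, 41.4, 38.7, 61.3, 38.8 and 44.8 CPM in ABS, so that the groups did not overlap. Its log2 difference of 0.74 (SE 0.15) did not pass (adjusted p = 0.291), and DESeq2 called it (adjusted p = 0.00784). Zfp800, Zfp622, Zfp532, Zfp141 and Zfp867 did not pass at 0.27, 0.31, -0.34, -0.48 and -0.44. For HT against ABS the background of calls was 0.147%, and 16 of 194 members had an unadjusted p under 0.05, beside 1474 of 10921 genes tested. These 16 members were all lower in HT, led by Zfp467, Zfp768 and Zfp704 at -0.72, -0.40 and -0.48 (adjusted p = 0.111, 0.114 and 0.115). Zfp932, Zfp383 and Zfp869 were at 0.46, 0.44 and 0.22. The summed fibroblast markers had a median of 1902 CPM in HT and 172 CPM in CON, and its part was not tested.

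No CD45- member was called on day 7. More of the members lay below CON than above it in ABS and in HT, a direction that was not tested. In ABS 129 of 194 members had a value below CON, with a median of -0.09 against -0.01 for all genes. Of the 16 with an unadjusted p under 0.05, 15 were lower, and 1051 of 10996 genes tested had such a p. The background of calls was 0.291% of all genes. The summed fibroblast markers had a median of 830 CPM in ABS, 201 CPM in HT and 55.2 CPM in CON, and their part was not tested. Zfp414 came closest, at 4.55, 4.73, 5.08 and 5.09 CPM in ABS and 6.23 to 10.2 CPM with a median of 8.51 CPM in CON. These groups did not overlap, and the log2 difference was -0.79 (SE 0.18, adjusted p = 0.0638), in a gene that shared 25.7% of its transcript end with another. Zfp866 and Zfp444 were at -0.65 and -0.45, and Zfp697, Zfp27 and Zfp703 at 0.41, 0.49 and 0.31. For HT against CON 123 of 194 members had a value below CON, with a median of -0.07 against 0.003 for all genes. An unadjusted p under 0.05 was held by 12 members and by 668 of 10996 genes tested, and the background of calls was 0. Here Zfp318, Zfp768 and Zfp637 were at 0.33, 0.27 and 0.32, and Zfp758, Zfp869 and Zfp180 at -0.91, -0.43 and -0.24. For HT against ABS 11 members had such a p, beside 741 of 10996 genes tested, with a background of calls of 0. Zfp318, Zfp768 and Zfp623 were at 0.48, 0.47 and 0.72, beside Zfp710, Zfp91 and Zfp697 at -0.53, -0.30 and -0.65. None of these passed.

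**Figure D4:**
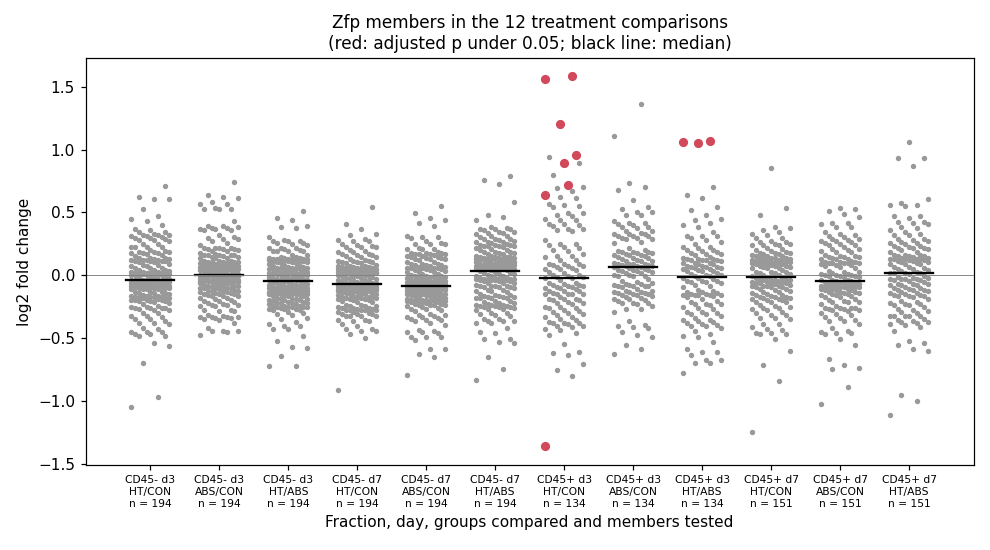
Log2 change of each tested member (vertical axis) in the 12 treatment comparisons (horizontal axis: fraction, day and groups), with red points for members called and black lines for medians. Called members appear in CD45+ cells on day 3, with 8 for HT against CON and 3 for HT against ABS.

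Whether the HT effect differed between the fractions was tested as an interaction. On day 3 it differed for 4 members, all with a higher value in CD45+ cells, 2.06% of 194 against a background of 1.91% of all genes (1.41% called higher) and 2.18% of genes of the same minimum (1.64% called higher). Zfp263 had a difference of effects of 1.68 (SE 0.34, adjusted p = 0.00857). Zfp608 had 1.24 (SE 0.32, adjusted p = 0.0327), Zfp654 had 1.06 (SE 0.26, adjusted p = 0.026) and Zfp292 had 0.83 (SE 0.22, adjusted p = 0.041).

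Zfp654 was called higher in CD45+ cells, while its CD45- difference of -0.33 did not pass (adjusted p = 0.549). For Zfp292 neither difference passed within its fraction, with 0.36 in CD45+ cells (adjusted p = 0.282). It was at 127 to 164 CPM in CON and 148 to 265 CPM in HT among CD45+ libraries, which overlapped, beside the CD45- values given above. Without CD45+ HT replicate 3 the differences were 1.57 for Zfp263 (adjusted p = 0.0188), 0.94 for Zfp608 (0.0698), 0.94 for Zfp654 (0.0606) and 0.68 for Zfp292 (0.0973), so 1 call was kept. The Zfp263 call held without each of the 35 libraries, that of Zfp654 without 31, that of Zfp608 without 27 and that of Zfp292 without 22. The CD45- CON libraries mattered most often: without replicate 1 Zfp654, Zfp608 and Zfp292 had adjusted p-values of 0.0539, 0.0503 and 0.0676, without replicate 2 0.0536, 0.0547 and 0.0865, and without replicates 3 and 4 Zfp608 had 0.0599 and 0.0541 and Zfp292 0.056 and 0.0602. Leaving out a CD45+ CON library cost calls of Zfp654 (replicate 1, 0.0513), Zfp608 (replicates 3 and 4, 0.0634 and 0.0681) and Zfp292 (replicates 1 to 4, up to 0.1005). The CD45- HT libraries did so for Zfp608 (replicate 3, 0.0503) and Zfp292 (replicates 1, 2 and 3, up to 0.0618), and CD45+ HT replicate 6 for Zfp292 (0.0742). Lower values that did not pass were those of Zfp938, Zfp146 and Zfp511, at -1.23, -1.997 and -0.84. With library totals as the scale Zfp608, Zfp654 and Zfp292 lost their call (adjusted p = 0.0591, 0.081 and 0.112), and so they did with the replicate number as a block (0.071, 0.081 and 0.057), while Zfp654 and Zfp292 also lost it without the filter on low counts (0.204 and 0.155). On day 7, with 3 HT libraries a fraction, 0 members were called, as were 0 of all genes. An unadjusted p under 0.05 was held by 6 members and by 623 of 12863 genes tested. Zfp710, Zfp738, Zfp383, Zfp329, Zfp341 and Zfp27 had the smallest p in their direction and did not pass, at 0.76, 0.81, 1.45, -1.07, -1.10 and -1.53.

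By role, the treatment calls in CD45+ cells on day 3 held Zfp622 of 10 RNA and protein members tested and Zfp703 of 8 transcription regulators. They held 0 of 4 KRAB members with a known silencing role, whose values ran from -0.64 for Zfp809 to 0.90 for Zfp57. Beside a background of 7.8% of all genes and 5.85% of genes of the same minimum, lists this short cannot set the roles apart. Of the 24 corepressor genes tested 0 were called by edgeR in HT against CON, beside 7.8% of all genes. An unadjusted p under 0.05 was held by 9 of them and by 2457 of 10264 genes tested. Among the 9 were Cbx1 at -0.55 and Rbbp4 at -0.47 (adjusted p = 0.0502 and 0.0522), and in the higher direction Atf7ip at 0.37 and Chd4 at 0.41. Zfp36 was at 1127 ± 98.5 CPM (SD, n = 4) in CON and 1382 ± 413 CPM (SD, n = 6) in HT, a log2 difference of 0.28 that did not pass.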

How the data were processed

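Raw gene counts were deposited by the authors, who used QuantSeq, Trim Galore 0.5.0, STAR 2.6.0 on GRCm38 and featureCounts per the submitters' processing notes, with reads of the same molecular identifier collapsed, separately for each fraction and day. QuantSeq counts transcript ends, so members with near-identical ends can share reads. In each CD45+ table, 1 line without a gene name held the column totals (100.0% of them) and was dropped, and 0 columns had no sample. Members and lists were chosen with earlier results of these data known. Genes were named by rule: up to 10 called in each direction by p (or up to 3 with the smallest p where fewer than 3 were called), role lists, highest levels, largest differences and the limits of the minimum.

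Counts were tested with edgeR 4.0.16 in R 4.3.3 (TMM factors, filterByExpr, quasi-likelihood test, Benjamini-Hochberg over all genes at 0.05), with the groups of a table fitted together, and in 1 fit of both fractions of a day for fraction differences and interactions. Code was tested on simulated data. No sex or batch is given per library. The smallest chi-square per degree of freedom between libraries of a group was 1.99, so each counted as a replicate. Alternatives were DESeq2 1.42.0, library totals, no filter, a replicate block, each library left out, other member minimums and, chosen after seeing the data, only libraries with at least 1000000 counts.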

Additional observations from a re-analysis of the deposited data

Results flagged for a closer look

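In CD45+ cells on day 3, Zfp703 in ABS replicate 3 stood at 157 CPM, apart from the other 6 ABS libraries, of which the next was at 125 CPM. Zfp608 in HT replicate 3 stood at 103 CPM, apart from the other 5 HT libraries, of which the next was at 56.9 CPM. That library also held the highest neutrophil marker level. Of 69 groups examined in this way 2 were so marked, and chance marks about 1 in 20.

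The HT effect differed between CD45+ and CD45- cells on day 3 by a test of the difference itself for 4 members, with log2 differences of effect of 1.68 for Zfp263, 1.24 for Zfp608, 1.06 for Zfp654 and 0.83 for Zfp292. Only the Zfp263 difference passed without CD45+ HT replicate 3, where it was 1.57.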

How the results depend on the processing

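In control tumors on day 7 the fraction differences of the 5 highest (Zfp703, Zfp263, Zfp407, Zfp292, Zfp758) and 5 lowest members (Zfp345, Zfp462, Zfp979, Zfp618, Zfp697) kept direction and call without each of 35 libraries and under 5 other alternatives, and other named members were not examined in this way. Member calls between fractions were 124 to 137 in CON, 88 to 105 in HT and 98 to 116 in ABS over the alternatives with the same members, 125 to 132, 92 to 107 and 95 to 107 with a library left out, 83, 62 and 65 with members chosen in CD45+ cells, and 82, 67 and 69 at a minimum of 30 counts, which test fewer genes. Without the filter on low counts, calls in CD45- cells on day 3 were 1 (HT against CON), 1 (ABS against CON) and 2 (HT against ABS), in CD45+ cells on day 3 were 2 (ABS against CON) and 5 (HT against ABS), and 2 for the day 3 interaction. DESeq2 gave 2 and 1 calls in CD45- cells on day 3 for HT and for ABS against CON. The interaction had 1 call with library totals. The cause of these moves was not tested. With a library left out, calls ranged from 0 to 2 (HT against CON, 2 without HT replicate 5) and 0 to 1 (HT against ABS, 1 without HT replicate 6) in CD45- cells on day 3, 0 to 1 (ABS against CON, 1 without HT replicate 3) in CD45- cells on day 7, 4 to 10 (HT against CON) and 2 to 7 (HT against ABS) in CD45+ cells on day 3, the 10 and 7 without HT replicate 5, and 1 to 4 for the day 3 interaction. No called value changed sign. The coefficient of variation was highest in low members, and the part of depth in this was not tested.

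The labels do not say that a replicate number marks a shared animal or day. Deviations of same-numbered libraries from their group means correlated at -0.336 to 0.468 within tables. Across fractions all 17 day 3 pairs were positive, at 0.011 to 0.338 with a median of 0.0931 (-0.0228 for other numbers), and the day 7 pairs ran from -0.0236 to 0.267. Since not every pair was over 0.1, the numbers were not taken to pair libraries. In the order of the samples, CD45+ HT replicate 3 of day 3 stands beside CD45- HT replicate 4. On day 7 CD45+ CON replicate 6 stands beside CD45- CON replicate 7. Equal numbers may thus join different tumors from there on. Neither the correlations across fractions nor a block over both fractions can therefore exclude a shared tumor. The replicate number as a block gave 8 calls for HT against CON in CD45+ cells on day 3, 8 higher and 0 lower, 3 for HT against ABS, 126, 102 and 105 between fractions in CON, HT and ABS, 1 for the day 3 interaction, and 0 elsewhere.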

Other observations

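Of the numbered Zfp lines, 4 had a mean of at least 10 counts in CD45+ but not in CD45- cells on day 3 and so are no members: Zfp52, Zfp53, Zfp429 and Zfp503, the last a corepressor of the same family as Zfp703. They were named after their values were seen, and the choice fixes their direction. In control tumors on day 7 Zfp52 was at 23.3 ± 1.76 CPM (SD, n = 10) in CD45+ and 3.82 ± 1.28 CPM (SD, n = 11) in CD45- libraries, a log2 difference of 2.55. Zfp53 was at 8.88 against 0.648 CPM (3.54), Zfp503 at 10.5 against 1.98 CPM (2.36) and Zfp429 at 10.3 against 2.47 CPM (1.999). On day 3 the CON means of Zfp52 were 20.03 CPM in CD45+ and 3.09 CPM in CD45- cells.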
